A study of Mus musculus with 8 samples.

Results

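The miR-290 cluster is a group of miRNA precursors that lie side by side on mouse chromosome 7. Its mature arms were examined in small RNA sequenced from the testes of 8 mice. The arms were selected by name, as every entry of the miRNA class named for an arm of miR-290, miR-291a, miR-291b, miR-292, miR-293, miR-294 or miR-295. The rule found 11 arms among the 20558 small RNAs listed, 730 of which are in the miRNA class. Of the 11 arms, 6 are 5p arms and 5 are 3p arms. The cluster itself was picked out on its measured values, since TN1 and TN2, a pair of mice on standard diet, exceeded every other mouse in its arms. All comparisons of TN1 and TN2 with the remaining mice are therefore descriptions and carry no test.

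A miRNA is cut as a hairpin from a longer transcript, and either side of the hairpin, the 5p or the 3p arm, can be loaded into the silencing complex. The seed, a short stretch near the 5′ end, sets which messenger RNAs are repressed. The cluster is transcribed as a unit and is best known from mouse embryonic stem cells, the early embryo and primordial germ cells. There its 3p arms with the seed AAGUGCU promote passage through the cell cycle. The adult testis contains spermatogonia, spermatocytes and spermatids together with Sertoli cells and other somatic cells. A bulk sample of this kind does not separate a change in the number of cells of a type from a change in RNA per cell.

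The mice were adult C57Bl/6 males, and the study compared a standard diet (SD) with a Western-like diet (WD). The SD mice were M1N, M2N, TN1 and TN2, and the WD mice were M1W, M2W, M3W and M5W. The sample labels give a diet rich in lipids from the age of 4 weeks and mating at 4 months. That wording stands in the labels of the control mice too, and it was not applied to them. The labels do not say what the letters M and TN mean, and no WD mouse bears a TN name, so within that pair of mice the diets could not be compared. The p-values below cover the spread between the libraries used in each comparison, which are 8 at most.

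The 10 arms with a RefSeq mature sequence are shown because their seeds divide the cluster. Capitals mark the seed (bases 2 to 8), and the arms are grouped by seed. The prefix mmu, for mouse, is dropped from the names further on. The first 3 arms share CUCAAAC, the next 3 have seeds of their own on the 5p side, the 3 that follow share AAGUGCU, and miR-293-3p has its own seed.
mmu-miR-290-5p: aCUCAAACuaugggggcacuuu
mmu-miR-292-5p: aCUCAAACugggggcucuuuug
mmu-miR-293-5p: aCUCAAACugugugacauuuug
mmu-miR-294-5p: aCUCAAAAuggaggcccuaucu
mmu-miR-295-5p: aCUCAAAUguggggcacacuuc
mmu-miR-291a-5p: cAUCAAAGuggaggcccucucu
mmu-miR-294-3p: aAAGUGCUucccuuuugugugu
mmu-miR-295-3p: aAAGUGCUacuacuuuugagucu
mmu-miR-291a-3p: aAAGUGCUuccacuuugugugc
mmu-miR-293-3p: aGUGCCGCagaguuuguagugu

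The eleventh arm is miR-292-3p. RefSeq (GRCm38.p6) names miR-290-5p as miR-290a-5p and miR-292-5p as miR-292a-5p. On the NCBIM37 assembly (mm9), the build used by the authors, the 7 precursors of the cluster span 2216 bases of the plus strand, at chr7:3218627-3220842. No other gene of the GENCODE M1 annotation overlaps this span. The next gene, Nlrp12 on the minus strand, has its 3′ end 668 bases beyond it. miR-290-5p lies at chr7:3218640-3218661 in the Mir290 hairpin at the 5′ end of the cluster, and miR-293-3p at chr7:3220391-3220412. RefSeq also lists Mir290b and Mir292b on the opposite strand. Whether the counting used strand is not given in the sources used here, so reads of a precursor and of its antisense partner cannot be told apart. miR-291a-5p and miR-291b-5p differ at 2 of 22 positions, the number of mismatches that the authors' alignment allowed, so the values of miR-291a-5p are uncertain. miR-291a-3p and miR-294-3p differ at 3 of 22 positions.

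The library totals were 2064562 to 3253798 counts in SD mice and 2159625 to 3092399 in WD mice. Levels are given as CPM, the counts scaled to a common library size with TMM factors. At these depths 3 counts, taken as the floor of detection, correspond to 0.933 to 1.39 CPM. Floors and intervals take in the error of counting alone, because PCR copies of a molecule are counted as separate reads. The miRNA class held between 9.23% and 12.7% of the counts. Marker miRNAs of spermatocytes and spermatids were abundant in every mouse, with a summed level of 13270 to 18194 CPM.

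The 5p arms of the CUCAAAC seed included the arm with the most counts in the cluster, miR-290-5p. It had 212 CPM in TN1 and 228 CPM in TN2. In M1N it had 12.3 CPM and in M2N 2.55 CPM, from 36 and 8 counts. In the WD mice it had 5.26 CPM in M1W, 2.63 CPM in M2W, 19.4 CPM in M3W and 6.22 CPM in M5W. TN1 and TN2 stood far above the rest, and the WD mice overlapped M1N and M2N. The mean of TN1 and TN2 was 27.3-fold that of the other 6 mice. The pooled counts gave a ratio of 28.6 with an exact 95% counting interval of 23.8 to 34.6. This interval leaves out the spread between mice, 2.55 to 19.4 CPM among the other 6, and is not a test of the contrast.

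miR-292-5p, which shares this seed, had 114 CPM in TN1 and 109 CPM in TN2. Its level was 2.74 CPM in M1N and 4.15 CPM in M2N. In WD mice it was 3.29 CPM in M1W, 3.95 CPM in M2W, 7.37 CPM in M3W and 2.49 CPM in M5W. The 6 mice outside the TN pair thus lay within a narrow band, and the mean of TN1 and TN2 was 27.8-fold theirs, the highest ratio among the 11 arms. miR-293-5p, the third arm with this seed, was counted 49 times in TN1, 34 times in TN2 and between 1 and 7 times in each other mouse. Its ratio was 14.3-fold, from 15.4 and 15.7 CPM in the TN mice.

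In the remaining 5p arms, too, TN1 and TN2 had the highest counts. miR-294-5p had 62 counts in TN1 and 65 in TN2, with 3 in M1N, 4 in M2N and 1 to 6 in the WD mice. miR-291a-5p had 50 counts in TN1 and 28 in TN2, with 4 in M1N, 0 in M2N and 1 to 5 in the WD mice. miR-295-5p, from the precursor at the 3′ end of the cluster, had 28 counts in TN1 and 26 in TN2, with 4 in each of M1N and M2N and 2 to 7 in the WD mice. The ratios of the TN mean to the mean of the other mice were 17.9 for miR-294-5p, 13.5 for miR-291a-5p and 6.98 for miR-295-5p. The last of these is the lowest ratio in the cluster.

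Among the 3p arms, miR-293-3p stood apart from the others in its level. It had 173 CPM in TN1 and 147 CPM in TN2. Its level was 41.5 CPM in M1N and 24.9 CPM in M2N, from 121 and 78 counts. In WD mice it had 10.5 CPM in M1W, 10.1 CPM in M2W, 30.4 CPM in M3W and 8.09 CPM in M5W. It was the arm with the most counts in each of the 6 mice outside the TN pair, and its TN ratio of 7.67 was near the low end of the cluster. M1N and M2N lay above 3 of the WD mice, while M3W lay between M1N and M2N.

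miR-292-3p had 34.3 CPM in TN1 and 25.0 CPM in TN2, against 0.685 CPM in M1N and 2.55 CPM in M2N. In WD mice it had 2.96, 4.82, 3.69 and 2.49 CPM in M1W, M2W, M3W and M5W, respectively. The level of M1N rested on 2 counts and lay below the floor. The 3 arms with the AAGUGCU seed, the seed by which the cluster is linked to the embryonic cell cycle, were scarce. miR-294-3p had 43 counts in TN1 and 25 in TN2, and 2 to 5 in each other mouse. miR-295-3p had 24 and 15 counts in TN1 and TN2, and 0 to 3 elsewhere. miR-291a-3p had 9 and 4 counts, and no more than 2 elsewhere, with 0 in M1N, M2N, M2W and M5W. The ratios of the pooled counts, with exact 95% counting intervals, were 9.71 (5.93 to 16.5) for miR-294-3p, 10.2 (5.24 to 21.4) for miR-295-3p and 10.2 (3.16 to 43.0) for miR-291a-3p. The last rests on 4 counts in all in the other 6 mice, each of them below the floor. The intervals leave out the spread between mice and are not tests of this contrast.

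**Figure D1:**
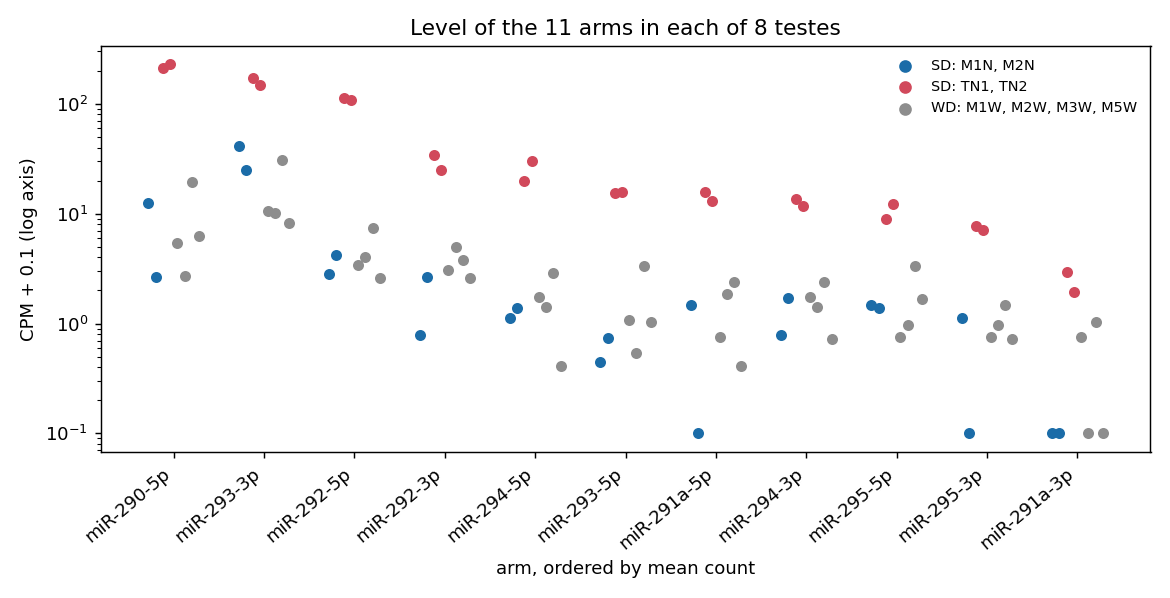
CPM plus 0.1 (log axis) of each of the 11 arms, ordered by mean count, with 1 point per mouse. TN1 and TN2 sit above every other mouse in all 11 arms, from 212 and 228 CPM for miR-290-5p to 2.84 and 1.85 CPM for miR-291a-3p, and points at the bottom are mice with 0 counts.

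In the plot of the levels by mouse the TN mice are on top in each arm, while the order within and below the TN pair varied. In 11 of 11 arms both TN mice exceeded each of the other 6, as they did in 601 of all 20558 small RNAs listed (2.92%). The latter number was 579 with DESeq2 factors, 777 with library totals and 1588 as a share of miRNA counts, and the former stayed at 11. This is the pattern for which the cluster was noticed, so nothing is read from the count. The TN ratios ranged from 6.98 to 27.8, with a median of 10.4, and the highest ratio of a 3p arm was 10.4. TN1 and TN2 were close to each other: the level in TN2 was 0.653 to 1.54 times that in TN1, higher for 4 arms and lower for 7. Among the other 6 mice, M3W had the highest level in 9 of the 11 arms.

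Summed over the 11 arms, the cluster had 616 CPM in TN1 and 601 CPM in TN2. The sum was 63.1 CPM in M1N and 38.9 CPM in M2N. In WD mice it was 28.9 CPM in M1W, 28.1 CPM in M2W, 76.9 CPM in M3W and 23.6 CPM in M5W. The cluster held 0.646% of the miRNA counts in TN1 and 0.680% in TN2, against 0.0220% to 0.0744% in the other 6 mice. The mean of the WD mice was 39.4 CPM ± 25.1 (SD, n = 4), and 26.9 CPM ± 2.84 (SD, n = 3) without M3W. The mean of M1N and M2N was 51.0 CPM ± 17.1 (SD, n = 2), within the range of the WD mice. On the log2 scale the WD mice lay 0.51 below M1N and M2N, less than the pooled SD of 0.71 between mice. The difference ranged from -0.16 without M1N to -0.89 without M3W, and was -0.32 without M5W. The average over arms, in place of the sum, gave a difference of 0.19 in the opposite direction.

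**Figure D2:**
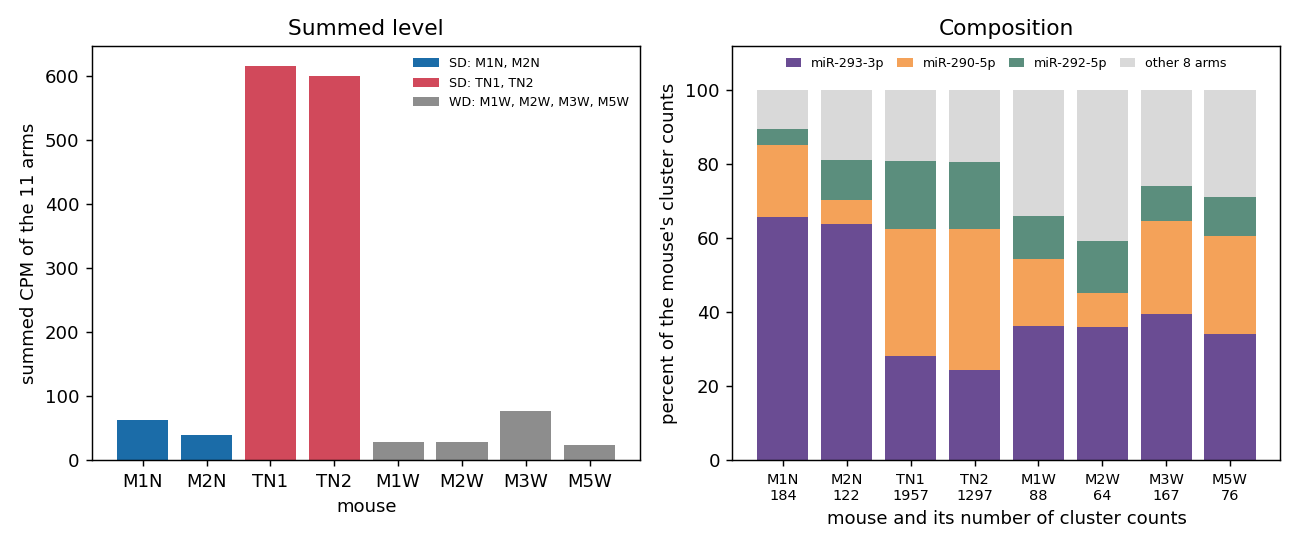
Left, summed CPM of the 11 arms in each mouse; right, the share of each mouse's cluster counts taken by miR-293-3p, miR-290-5p, miR-292-5p and the other 8 arms, with the number of counts under each name. The sum is 616 and 601 CPM in TN1 and TN2 and at most 76.9 CPM elsewhere, and miR-293-3p takes 65.8% and 63.9% of the counts in M1N and M2N.

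The mice differed in the make-up of the cluster as well as in its level. miR-290-5p led in TN1, with 34.3% of the cluster counts (exact 95% interval 32.2% to 36.5%), and in TN2, with 38.0% (35.4% to 40.7%). In these mice miR-293-3p held 28.1% and 24.5%. In M1N miR-293-3p held 65.8% (58.4% to 72.6%) and in M2N 63.9% (54.7% to 72.4%) of the cluster. Its share in the WD mice was 36.4% (26.4% to 47.3%) in M1W, 35.9% (24.3% to 48.9%) in M2W, 39.5% (32.1% to 47.4%) in M3W and 34.2% (23.7% to 46.0%) in M5W. The intervals of M1N and M2N did not overlap those of the other mice. Without miR-293-3p the summed level was 21.6 CPM in M1N and 14.0 CPM in M2N, and 15.6 to 46.5 CPM in the WD mice, so that M1N lay among the WD mice and M2N below them.

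The 5p arms together made up 62.4% and 67.9% of the cluster counts in TN1 and TN2. They made up 30.4% in M1N, 25.4% in M2N and 39.1% to 50.0% in the WD mice. With miR-293-3p set aside the 5p share was 86.9% and 90.0% in TN1 and TN2, 88.9% in M1N and 70.5% in M2N. In the WD mice it was then 61.0% to 82.2%.

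The comparison that the study was designed for sets the 4 WD mice against the 4 SD mice. Of the 11 arms, 4 passed the filter on low counts (miR-290-5p, miR-293-3p, miR-292-5p and miR-292-3p) and 7 did not. By edgeR's quasi-likelihood test, adjusted by the method of Benjamini and Hochberg across 16955 small RNAs, none of the 4 was called (adjusted p under 0.05). Nor was any small RNA (0%). At an unadjusted p under 0.05, 4 of the 4 arms passed, beside 14.6% of all small RNAs tested. The filter asks for enough counts in 4 mice, and miR-292-3p met it only with TN1 and TN2 among them. By DESeq2 the counts of arms were 0 adjusted and 4 unadjusted, beside 0 and 2195 of the 16955 small RNAs. By limma-voom they were 0 and 1, beside 0 and 2506 of the 16955. The TN mice are among the 4 SD mice, so these values are not independent of the reason for which the cluster was noticed.

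The log2 fold change of WD against SD was -3.80 (standard error 0.97) for miR-290-5p and -2.74 (0.55) for miR-293-3p. It was -3.78 (0.94) for miR-292-5p and -2.17 (0.78) for miR-292-3p. All 4 had an adjusted p of 0.318 in edgeR's quasi-likelihood test. With limma-voom the values were smaller, at -2.38 for miR-290-5p, -2.25 for miR-292-5p, -0.87 for miR-292-3p and -2.51 for miR-293-3p, and without TN1 edgeR gave -1.33 for miR-292-3p. With no filter on low counts the median over the 11 arms was -2.52, against a median of -0.00 over all small RNAs. The summed level, WD minus SD, differed by -2.32 on the log2 scale, with a pooled SD of 1.59 between mice. It was -1.71 without TN1, -1.72 without TN2, -3.04 without M2N and -1.41 as an average over arms.

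M1N and M2N are the SD mice whose level did not single out the cluster. Against them the picture differed by arm. miR-293-3p fell in WD mice, to 14.8 CPM ± 10.5 (SD, n = 4) from 41.5 and 24.9 CPM, with a log2 fold change of -1.21 ± 0.36 (SE). By edgeR's quasi-likelihood test its adjusted p was 0.0208 across 17495 small RNAs (Benjamini-Hochberg). It was the only arm called of the 4 tested. In the same fit 20.8% of all small RNAs were called and 10.8% were called lower in WD mice, so 1 of 4 is close to the background. With library totals in place of TMM factors the median of all small RNAs shifted to 0.13, and the calls lower in WD mice dropped to 1214 of 3654 from 1889 of 3642. The change of miR-293-3p was then -1.07. The call was lost with DESeq2 (log2 fold change -1.18, adjusted p = 0.225). It was also lost without M1N (-0.80, adjusted p = 0.314 in edgeR's test), without M1W (-1.07, adjusted p = 0.0621) and without M5W (-0.99, adjusted p = 0.0628). Without M2N (-1.52, adjusted p = 0.0119) and without M3W (-1.79, adjusted p = 0.00168) the edgeR call held.

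For the other 3 arms a difference from M1N and M2N was not detectable at this depth. The WD mean of miR-290-5p was 8.37 CPM ± 7.48 (SD, n = 4), and its log2 fold change was 0.13 ± 0.56 (SE), at an edgeR adjusted p of 0.888. The WD mean of miR-292-5p was 4.27 CPM ± 2.15 (SD, n = 4), and its log2 fold change was 0.24 ± 0.48 (SE), at an edgeR adjusted p of 0.751. The WD mean of miR-292-3p was 3.49 CPM ± 1.02 (SD, n = 4), and its log2 fold change was 1.03 ± 0.58 (SE), at an edgeR adjusted p of 0.207. This value rested on single SD mice, at 0.41 without M1N and 2.25 without M2N (edgeR adjusted p = 0.774 and 0.0835), and without M2W or M3W the arm did not pass the filter. That of miR-290-5p was -0.60 without M2N or without M3W and 1.64 without M1N. With no filter, the log2 fold changes of the 10 arms other than miR-291a-3p had a median of 0.29, 9 of them above 0 and 1, that of miR-293-3p, below. The median over all small RNAs was 0.01. For miR-291a-3p, with 0 counts in M1N and M2N and at most 2 in a WD mouse, no fold change is given.

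Against TN1 and TN2 the log2 fold changes of WD mice were -4.77 for miR-290-5p, -4.76 for miR-292-5p and -4.07 for miR-294-5p. They were -3.62 for miR-291a-5p, -3.52 for miR-293-5p, -3.50 for miR-293-3p, -3.13 for both miR-292-3p and miR-294-3p, -3.04 for miR-295-3p and -2.73 for miR-295-5p. In this fit 10 arms passed the filter on low counts, 6 more than in the fit of all 8 mice, and those 6 passed through the TN mice, since their counts were at most 7 in each other mouse. No test is given, because this contrast is the one in which the cluster was noticed. It shares the WD mice with the comparison against M1N and M2N.

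**Figure D3:**
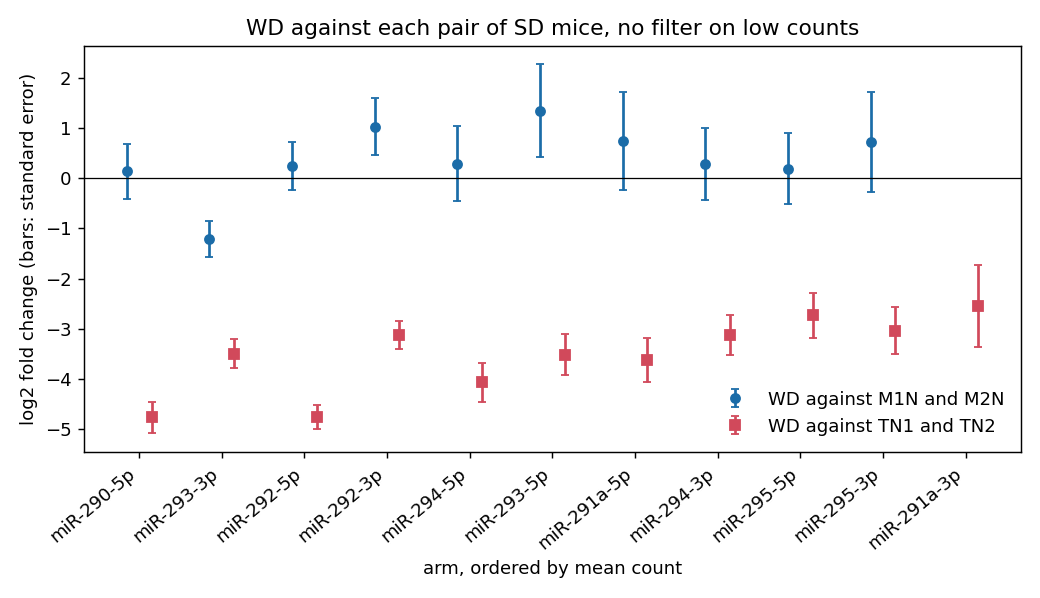
Log2 fold change of WD mice against M1N and M2N (circles) and against TN1 and TN2 (squares) for each arm, fitted with no filter on low counts; bars are standard errors. Against TN1 and TN2 the arms lie between -4.77 and -2.54, whereas against M1N and M2N only miR-293-3p lies below 0 and miR-291a-3p is left out because both SD mice have 0 counts.

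The plot of fold changes by SD pair shows both sets of values side by side. The distance between them was narrowest for miR-293-3p, the arm with the highest level in M1N and M2N. The standard errors were widest for arms with few counts.

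Both arms were listed for 5 precursors, and the ratio of 5p to 3p counts was taken within each precursor. It was computed as log2 after adding 0.5 to each count, which draws the ratio of a mouse with few counts towards 0. For Mir292 the SD mice had a mean of 1.57 ± 0.62 (SD, n = 4) and the WD mice one of 0.21 ± 0.53 (SD, n = 4), a difference of -1.36 (exact permutation test, two-sided, p = 0.0571, adjusted p = 0.286 over the 5 precursors). The smallest p that 4 mice against 4 allow is 0.0286. The 5p share of Mir292 was 76.8% and 81.3% in TN1 and TN2 and 61.9% in M2N, and in M1N it was 8 of 10 counts. In the WD mice it was 52.6%, 45.0%, 66.7% and 50.0%, from 16 to 24 counts per mouse, so that M3W lay above M2N.

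The hairpin of Mir293 is shown because its 3p arm dominated its 5p arm in every mouse, unlike the other 4 precursors. Capitals mark the 5p arm and then the 3p arm.
Mir293: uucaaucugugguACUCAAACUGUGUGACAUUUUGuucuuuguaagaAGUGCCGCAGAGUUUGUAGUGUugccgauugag

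The 5p arm of Mir293 took 0.820% of the counts of both arms in M1N and 2.50% in M2N. It took 8.18% in TN1 and 9.66% in TN2, and 8.57%, 4.17%, 9.59% and 10.3% in M1W, M2W, M3W and M5W. Pooled, the share was 8.73% (exact 95% interval 7.01% to 10.7%) in the TN mice, 1.49% (0.307% to 4.28%) in M1N and M2N and 8.70% (4.84% to 14.2%) in WD mice. M1N and M2N were thus the lowest mice, and the WD mice lay beside the TN mice. The WD and SD groups overlapped, with a difference of 1.19 in the log2 ratio (exact permutation test, two-sided, p = 0.200, adjusted p = 0.381). Without M1N it was 0.57, without TN2 1.62, and with M1N and M2N as the only SD mice 2.34.

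For the other precursors no test passed, and with 4 mice against 4 a single precursor could not reach an adjusted p under 0.05 over the 5. The difference in the log2 ratio was -0.64 for Mir294 (exact permutation test, two-sided, p = 0.229, adjusted p = 0.381), -0.57 for Mir295 (exact test, p = 0.629, adjusted p = 0.629) and -0.59 for Mir291a (exact test, p = 0.629, adjusted p = 0.629). The value of Mir291a is weak, since M2N had 0 counts of both arms and enters with a ratio of 0 set by the added 0.5. It was -1.27 without M2N, -1.15 without M2W, -0.22 without M1N and -0.10 without M1W. That of Mir295 turned to 0.11 without M2N, and that of Mir294 was -0.36 without TN2. Pooled over the TN mice, the 5p arm took 65.1% of Mir294, 58.1% of Mir295 and 85.7% of Mir291a. In WD mice it took 50.0%, 64.0% and 75.0%, from 30, 25 and 16 counts. At such counts shares of this size are loosely bounded, as the interval of 47.6% to 92.7% for Mir291a in WD mice shows.

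**Figure D4:**
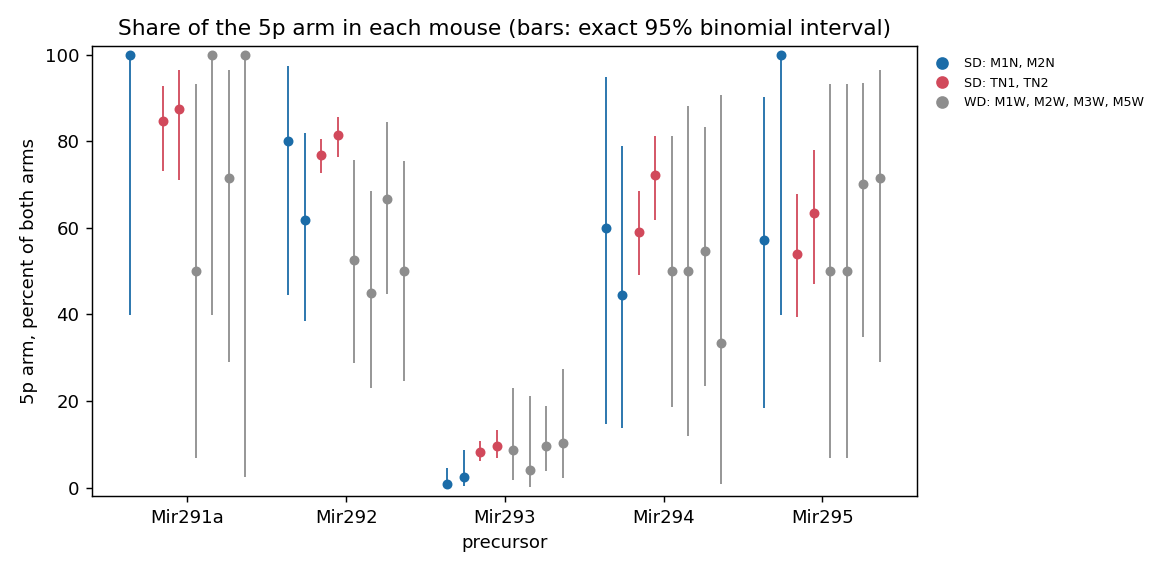
Share of the 5p arm in the counts of both arms of each precursor, in percent, with 1 point per mouse and exact 95% binomial intervals; M2N has no point for Mir291a because it had 0 counts. The 5p arm takes 0.820% to 10.3% for Mir293, and in Mir292 it takes 45.0% to 66.7% in WD mice and 61.9% to 81.3% in SD mice.

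The plot of arm shares shows wide intervals outside the TN mice for each precursor but Mir293. The 5p shares of TN1 and TN2 had overlapping intervals in each of the 5 precursors.

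Other miRNAs were compared with the summed level of the cluster over the 8 mice, as a description of likeness. The miRNAs compared share libraries and depth, and TN1 and TN2 lie far from the other points. Among 362 mature miRNAs that passed the filter and are no arms of the cluster, miR-20b-5p had the highest Pearson correlation of log2 levels (r = 0.865, n = 8). It is a relative of miR-17 from the miR-106a cluster, and it had 12.9 and 11.1 CPM in TN1 and TN2 against 3.94 to 7.02 CPM elsewhere. miR-376b-3p followed with r = 0.861, with 11.7 and 12.5 CPM in TN1 and TN2 and 2.40 to 5.70 CPM elsewhere. Its TN ratio of 3.23 was the largest of the 362.

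The next were the 3 miRNAs of one cluster, miR-182-5p (r = 0.841), miR-96-5p (r = 0.839) and miR-183-5p (r = 0.827), with TN ratios of 1.73, 1.64 and 2.52. In miR-96-5p the mouse M3W, at 18.4 CPM, lay between TN1 and TN2. The red cell miRNAs miR-144-3p and miR-451 followed with r = 0.627 and 0.520, and miR-205-5p, known from epithelia, with r = 0.487. Over the 6 mice outside the TN pair the correlation was 0.855 for miR-96-5p, 0.709 for miR-205-5p, 0.569 for miR-182-5p, 0.0963 for miR-183-5p, 0.0313 for miR-451, 0.0153 for miR-376b-3p, -0.178 for miR-20b-5p and -0.280 for miR-144-3p (n = 6 mice). For miR-20b-5p, miR-376b-3p, miR-183-5p, miR-451 and miR-144-3p the relation was near or below 0 among these 6 mice.

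The relatives of the cluster by seed are shown so that their seeds can be set beside those of the arms. Of the 4, miR-20b-5p was the one that followed the cluster in TN1 and TN2. miR-302b-3p and miR-302d-3p, which are embryonic stem cell miRNAs, have the seed AAGUGCU of miR-294-3p, miR-295-3p and miR-291a-3p, and miR-17-5p and miR-20b-5p carry the overlapping seed AAAGUGC.
miR-302b-3p: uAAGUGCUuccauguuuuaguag
miR-302d-3p: uAAGUGCUuccauguuugagugu
miR-17-5p: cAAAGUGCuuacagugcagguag
miR-20b-5p: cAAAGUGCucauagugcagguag

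The 5 miRNAs listed of the miR-302 and miR-367 group had a summed level of 14.5 to 14.8 CPM in the TN mice, 14.3 to 22.3 CPM in M1N and M2N and at most 25.8 CPM in WD mice, whose range extended below and above the TN mice. In 0 of the 5 did both TN mice exceed the others. miR-302b-3p, the most abundant, had a mean of 8.36 CPM in the TN mice, 10.6 CPM in M1N and M2N and 8.85 CPM ± 3.61 (SD, n = 4) in WD mice. miR-302d-3p had 3.35, 3.98 and 4.54 CPM and miR-302a-3p 1.70, 2.50 and 2.71 CPM in the same order. Of the 6 miR-17 relatives, miR-20b-5p was the only member above all other mice in TN1 and TN2. The abundant ones, miR-93-5p, miR-17-5p and miR-20a-5p, had TN means of 456, 442 and 207 CPM, means of 602, 334 and 165 CPM in M1N and M2N, and WD means of 558, 489 and 240 CPM.

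Markers of the cell types of the testis were examined beside the cluster. In the miRNA class as a whole, both TN mice exceeded the others in 75 of 730 entries. Of the spermatocyte and spermatid markers, led by miR-34c-5p, miR-34b-5p and miR-449a-5p, 0 of 5 had both TN mice above the others, and the summed level was 13423 to 16391 CPM in the TN mice. Of the spermatogonial markers, led by miR-21-5p, miR-221-3p and miR-222-3p, it was 0 of 4. Their summed level was 629 to 805 CPM in the TN mice, 839 to 894 CPM in M1N and M2N and 824 to 1209 CPM in WD mice. The Sertoli cell markers miR-202-5p and miR-202-3p summed to 4034 to 4193 CPM in the TN mice and 3609 to 7021 CPM in the others, with 0 of 2 above all other mice in the TN pair.

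Markers of smooth muscle (miR-145-5p and miR-143-3p), endothelium (miR-126-3p and miR-126-5p) and skeletal and heart muscle (miR-1a-3p and miR-133a-3p) gave 0 of 2 each. Smooth muscle markers summed to 3058 to 3438 CPM in the TN mice and 4149 to 4321 CPM in M1N and M2N. In WD mice they summed to 3232 to 5921 CPM. Those of endothelium summed to 1323 to 1412, 2058 to 2099 and 1248 to 2438 CPM in the same order. Those of skeletal and heart muscle summed to 44.7 to 46.3, 36.7 to 40.2 and 26.7 to 51.7 CPM. Of the blood markers, led by miR-223-3p, miR-451 and miR-142-5p, both TN mice exceeded the others in 1 of 5, miR-144-3p. The summed blood level was at most 337 CPM in the TN mice and 244 to 484 CPM in the others.

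The liver marker, miR-122-5p, moved with the cluster. It had 49 counts in TN1 and 28 in TN2, or 15.4 and 13.0 CPM, and 0 counts in each of the other 6 mice. Its mean in the TN mice was at least 10.3-fold the highest level, 1.38 CPM, that a count of 0 allows in the other mice (3 counts per library). Its other arm, miR-122-3p, named after its values were seen, had 12 and 9 counts in TN1 and TN2 and 0 elsewhere. miR-122-5p equalled 2.50% and 2.16% of the cluster counts in TN1 and TN2. Its part in the level of the cluster was not tested.

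**Figure D5:**
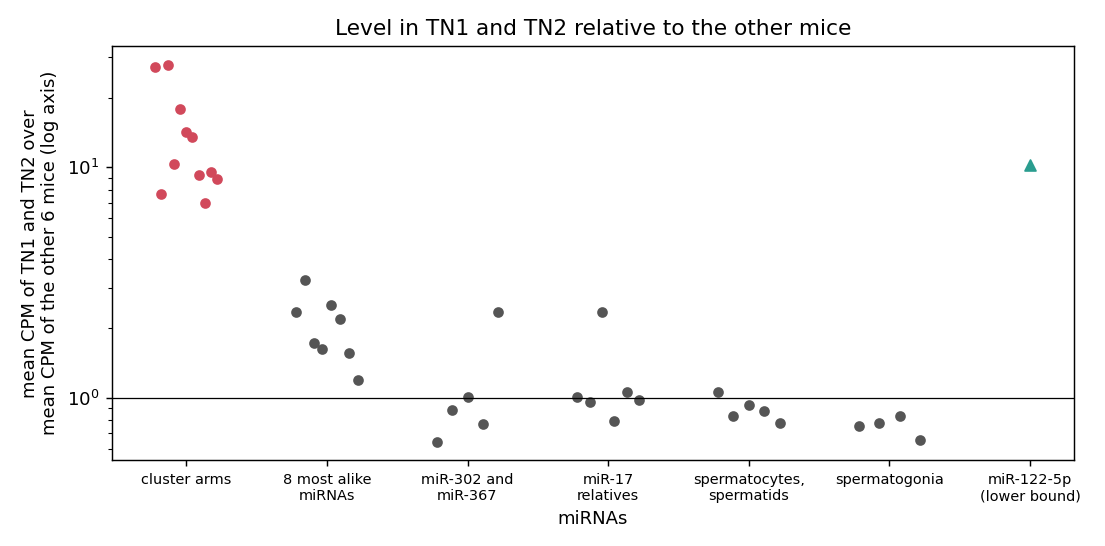
Ratio of the mean CPM of TN1 and TN2 to the mean CPM of the other 6 mice (log axis), with 1 point per miRNA, for the cluster, the 8 miRNAs most alike to it and the lists of relatives and germ cell markers; the triangle is a lower bound. The cluster arms lie between 6.98 and 27.8, the most alike miRNAs between 1.19 and 3.23, and miR-122-5p at or above 10.3.

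The plot of TN ratios by list places the cluster arms above the miRNAs of the other lists except miR-122-5p. Within the miRNA class, 29 of 730 entries had both TN mice at more than 2 times the highest other mouse and at least 10 counts in the TN pair, a limit chosen after the values were seen. The 11 cluster arms were among them. The others were 4 mature miRNAs (miR-376b-3p, miR-122-5p, miR-122-3p and miR-5109), 1 precursor name and 13 entries with Ensembl names.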

How the data were processed

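Testis small RNA was sequenced by the authors on a SOLiD instrument. Reads were cut where the adaptor began, otherwise at 31 bases, and placed on mm9 by Bowtie with up to 2 mismatches. Annotation came from miRBase release 18, Rfam and a further ncRNA resource. The deposited values are raw counts, with a column for each mouse, neither pooled nor normalised. The submitters' processing notes also name DESeq. How reads with several matches were counted is not given in the sources used here. Total counts per mouse set the error of counting, but not the spread between mice.

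The tests used edgeR 4.0.16 under R 4.3.3, with TMM factors, filterByExpr (minimum count 10, minimum total 15) and the two-sided quasi-likelihood test, with diet as the only term, adjusted over all small RNAs tested. Standard errors were derived from the F statistic. DESeq2 1.42.0, limma 3.58.1, other scalings and filters, a block and leaving out each mouse were alternatives. The procedure was also run on simulated counts, which held no difference between the TN and M mice of the SD group. No result given here rests on that run. Arm ratios were compared by exact permutation of the 8 mice (70 assignments, scipy 1.17.1), and likeness on log2(CPM + 1). Figures were drawn with matplotlib 3.10.9.

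The cluster and the lists were chosen with earlier results of these data known. The miRNAs named were, by rule, all arms, the 8 most alike miRNAs and the 3 most abundant of each marker list. miR-122-3p and miR-5109 were named after their values were seen. miR-291a-3p, with 17 counts in all, also met the naming rule. Sequences came from RefSeq (GRCm38.p6), which matched 10 of 11 arms, and positions from NCBIM37 with GENCODE M1. All 28 pairs of libraries differed beyond counting noise (chi-square per degree of freedom 2.76 to 28.1).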

Additional observations from a re-analysis of the deposited data

Results flagged for a closer look

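M3W stood apart from the other WD mice, with a gap to the nearest mouse that took most of the range of the group. Its summed cluster level was 76.9 CPM, against 23.6 to 28.9 CPM in M1W, M2W and M5W. Without miR-293-3p its sum was 46.5 CPM, against 15.6 to 18.4 CPM. Its level of miR-293-3p was 30.4 CPM, against 8.09 to 10.5 CPM. In all, 36 groups of 4 mice were examined and 3 had a mouse so far from the others, where chance gives about 1 in 20, or 1.8. The sum contains miR-293-3p, so these 3 values are not independent.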

How the results depend on the processing

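The number of arms called for WD against SD was 0 under all alternatives but those limited to M1N, M2N, M1W and M2W, where it was 1 of 3 tested, miR-293-3p, both with the replicate number as a block (log2 fold change -1.66, beside 1176 of 17036 small RNAs called) and without it (-1.67, beside 1044). The deviations of same-numbered mice correlated at -0.08 and 0.24. With 2 pairs and no label that ties them, the numbers were not taken to pair the mice. For WD against M1N and M2N the number was 1, but 0 with DESeq2, and 0 to 1 over the fits that leave out 1 mouse (0 without M1N, M1W or M5W). Directions turned as follows. With M1N and M2N as the only SD mice, WD against SD gave 0.13 for miR-290-5p, 1.03 for miR-292-3p and 0.24 for miR-292-5p; the last was 0.087 with the block and 0.053 for the same 4 mice without it. Against M1N and M2N, miR-290-5p was -0.60 both without M2N and without M3W (range -0.60 to 1.64 over mice left out), and miR-292-5p was -0.02 without M1N and -0.12 without M3W (-0.12 to 0.59). The arm ratio of Mir295 was 0.11 without M2N (-0.88 to 0.11). As a mean of log2 levels in place of a sum, the log2 difference of WD from TN mice was -3.01 instead of -4.13. TN against M1N and M2N was 3.20 by that mean and 3.18 without miR-290-5p, instead of 3.62. The cause was not tested. TN1 and TN2 exceeded the other 6 mice in 11 arms under all 4 scalings. The percent of the 5p arm could not be computed for Mir291a in M2N, which had 0 counts. Low counts limit 7 of the 11 arms, and with 2 SD mice outside the TN pair the call of miR-293-3p, though not its direction, rests on single mice (-1.79 to -0.80 over mice left out). The comparison with M1N and M2N was planned, whereas its use as a version of the WD against SD fold changes, the 4 mice without the block, the sum without miR-293-3p and the count of arms under other scalings were added after the data were seen.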
